A study of Homo sapiens with 4 samples.

Results

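The genes described here are 10 early response genes, EGR1, EGR2, EGR3, IER2, IER3, IER5, KLF2, KLF6, KLF10 and SRF, measured by RNA sequencing in HCT116 cells, an established human colon cancer line. Their rows were found by symbol, through the human Ensembl identifiers of the deposited table. All 10 were found among the 20263 genes listed, and all 10 were among the 14105 genes with enough counts to be tested. The study has 2 groups of 2 libraries each, HCT116 cells given DMSO, the solvent, and HCT116 cells given N_12, both for 24 h in medium with 10% serum. According to the series title N_12 is a nilotinib derivative (nilotinib inhibits the BCR-ABL kinase), but the treatment tag of the N_12 samples reads HJJ_3_5 and no dose is given. Both groups come from a single cell line, and the labels do not say whether replicates were separate cultures, so p-values measure only the spread between these libraries, which may be technical.

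Early response genes are transcribed within minutes of a growth factor signal, without the need for new protein, and their transcripts are short-lived. Much of this control runs from RAS through the kinases RAF, MEK and ERK to SRF, a DNA-binding protein that sits on the CArG box of its targets together with either ETS-family cofactors (the ELK proteins) or the actin-regulated MRTF coactivators. The EGR and KLF proteins are zinc finger transcription factors that pass the signal on, and the IER proteins are small regulators without a zinc finger. In colon cancer cells with an activated RAS pathway, several of these genes are expressed during ordinary growth in serum.

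Promoter windows of the members were searched for the CArG box, the site that SRF itself binds. RefSeq windows of 300 bases (250 before and 50 from the transcription start, build GRCh38.p14) were at hand for 7 of the 10 genes, with 10 windows in all because EGR2 has 3 starts and SRF has 2. EGR3, IER3 and KLF10 had no window, and sequence outside the windows was not searched. The stretches around the CArG boxes are printed because they hold every CArG box found in the members' windows, with the CArG boxes in capitals.
EGR1, chr5:138465354-138465425, plus strand: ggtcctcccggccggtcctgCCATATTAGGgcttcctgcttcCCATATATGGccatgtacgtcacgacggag
SRF, chr6:43171219-43171268, plus strand: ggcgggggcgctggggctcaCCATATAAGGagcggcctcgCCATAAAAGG
EGR2, chr10:62816408-62816457, minus strand: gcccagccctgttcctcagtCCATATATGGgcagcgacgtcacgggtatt

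The window of EGR1 held 2 CArG boxes, starting 105 and 83 bases before the transcription start. SRF also held 2, at the first of its listed starts, beginning 30 and 10 bases before it, and EGR2 held 1, at the third of its listed starts, 71 bases before it. A CArG box was found in 1.29% of the 35116 windows of the same length in the RefSeq table, and 2 or more in 0.0313% (11 windows). The windows of IER2, IER5, KLF2 and KLF6 held none, which says only that these letters are not in these windows. Another 3 motifs, shorter ones, were searched as well, on both strands. The EGR binding site GCGNGGGCG was found in at least 1 window of EGR1, EGR2, SRF, KLF2 and KLF6 (9.43% of all windows). The ETS core was searched only in its longer form CCGGAA, found in windows of SRF, IER2 and IER5 (17.2%). The shorter core GGAA was not searched, and the printed stretches of EGR1 and EGR2 hold it on the other strand (ttcc). The CRE core TGACG was found in windows of EGR1, EGR2, SRF and IER2 (24.6%). No match overlapped another, and a match is a description of the sequence and not a bound site.

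**Figure D1:**
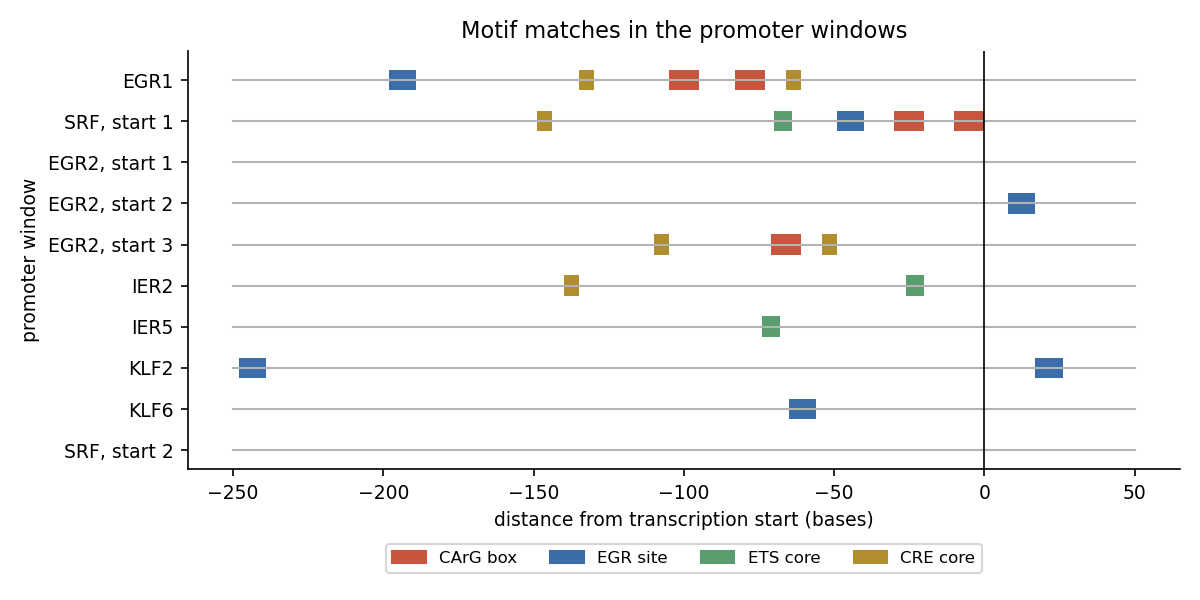
Positions of 4 motifs in the 10 RefSeq promoter windows of 7 members; the x axis is the distance from the transcription start in bases, and each bar spans a match on either strand. The CArG boxes lie in the windows of EGR1 (2 boxes), the first start of SRF (2 boxes) and the third start of EGR2 (1 box).

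Of the 10 genes, EGR1 and KLF10 fell in N_12, and the other 8 did not pass the test. EGR1, a zinc finger activator induced by serum, went from 619 ± 73.8 CPM (the gene's counts relative to the scaled library total, mean ± SD, n = 2) to 248 ± 6.85 CPM, a 2.49-fold fall. KLF10, a zinc finger repressor also induced by TGF-beta, went from 170 ± 5.87 to 89.8 ± 21.7 CPM, a 1.90-fold fall. Over all 14105 tested genes the quasi-likelihood test of edgeR, adjusted by Benjamini-Hochberg, called 2.25% in either direction, 1.43% as lower and 0.822% as higher, against 2 of 10 members as lower and 0 as higher. DESeq2 also called these 2 members lower and 0 higher, against 4.78% and 3.91% of all genes. With limma-voom EGR1 alone was lower and 0 members were higher, against 0.596% and 0.333%. At an unadjusted edgeR p under 0.05, 5 members lay on the lower side and 0 on the higher side, against 10.8% and 11%. The median log2 fold change of the 10 genes was -0.39, beside 0.01 over all tested genes. The 10 genes were chosen with earlier results of these data known, so these shares describe the set and do not test it.

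**Figure D2:**
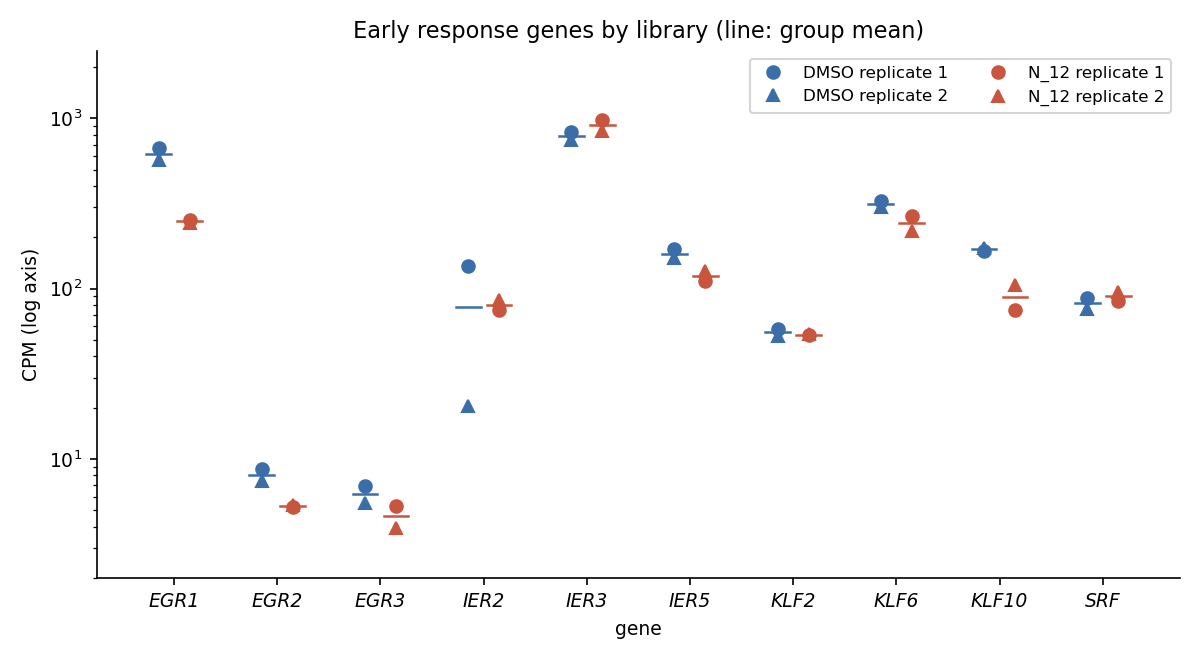
CPM of the 10 genes on a log axis, with circles and triangles for replicates 1 and 2 of DMSO (blue) and N_12 (red) and a line at each group mean. EGR1 reads 567 CPM in its lower DMSO library against at most 253 CPM in N_12, and IER2 spreads from 20.5 to 136 CPM within DMSO.

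SRF, the member that binds the CArG box (ENSG00000112658), read 87.7 and 76.1 CPM in DMSO replicates 1 and 2 and 84.8 and 95.3 CPM in N_12 replicates 1 and 2. The groups overlapped, with a log2 fold change of 0.14 (95% interval -0.20 to 0.48, adjusted p = 0.629 by edgeR). That interval still allows a modest change of SRF in either direction.

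EGR1 (ENSG00000120738) read 671 and 567 CPM in DMSO and 253 and 244 CPM in N_12. The N_12 libraries were both below the DMSO libraries, by more than the spread within either group, the log2 fold change being -1.32 with a standard error (SE) of 0.14 (adjusted p = 0.00606 by edgeR). The call ended when either N_12 library was left out, with log2 fold changes of -1.36 (adjusted p = 0.124, without N_12 replicate 1) and -1.29 (adjusted p = 0.128, without N_12 replicate 2); edgeR then called 0 of all tested genes, although 2855 and 2763 had an unadjusted p under 0.05. Over the 15 other settings tried, its log2 fold change stayed between -1.43 and -1.19.

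EGR2 (ENSG00000122877), a relative known from myelination and from T cell regulation, read 8.69 and 7.45 CPM in DMSO and 5.22 and 5.35 CPM in N_12. The groups did not overlap, but the log2 fold change of -0.61 (95% interval -1.07 to -0.15) did not pass after adjustment (adjusted p = 0.136 by edgeR). EGR3 (ENSG00000179388), the third of these factors, read 6.89 and 5.48 CPM in DMSO and 5.32 and 3.92 CPM in N_12. Its groups were separated by a narrow gap, with a log2 fold change of -0.42 (95% interval -0.97 to 0.14, adjusted p = 0.348 by edgeR). EGR1 made up 97.8% of the summed CPM of the 3 EGR genes in DMSO and 96.2% in N_12, so that their sum followed EGR1, from 687 and 580 CPM in DMSO to 264 and 253 CPM in N_12.

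IER3 (ENSG00000137331), a regulator of cell survival and of ERK and NF-kB signalling, read 834 and 748 CPM in DMSO and 979 and 847 CPM in N_12. Both N_12 libraries lay above both DMSO libraries by a margin smaller than the spread within either group, and the log2 fold change was 0.21 (95% interval -0.11 to 0.52, adjusted p = 0.416 by edgeR). IER5 (ENSG00000162783), a cofactor of the heat shock factor HSF1, read 170 and 151 CPM in DMSO and 110 and 127 CPM in N_12. Its groups did not overlap, with a log2 fold change of -0.44 (95% interval -0.77 to -0.11, adjusted p = 0.139 by edgeR), which was not called.

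IER2 (ENSG00000160888), a nuclear regulator of transcription, was the member whose value depended on a single library. It read 136 CPM in DMSO replicate 1, 20.5 CPM in DMSO replicate 2, and 75.0 and 85.7 CPM in N_12, from counts of 4146, 604, 3159 and 3495. Both N_12 libraries thus lay between the 2 DMSO libraries, which differed 6.62-fold, and the log2 fold change of 0.04 had a 95% interval of -4.21 to 4.29 (adjusted p = 0.991 by edgeR). Without DMSO replicate 1 IER2 was called higher in N_12 (log2 fold change 1.97, adjusted p = 0.000454), as were 0.655% of all genes tested there, and without DMSO replicate 2 it lay lower and was not called (-0.76, adjusted p = 0.0663). No direction is therefore given for IER2.

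The gap in IER2 was not shared by the other members. Among 11235 genes whose mean reached 5 CPM, 43 differed at least 4-fold between the DMSO libraries and 36 did between the N_12 libraries, and IER2 had the 18th largest gap within DMSO (0.5 CPM was added before these ratios). The other 9 members differed by 1.05-fold (KLF10) to 1.26-fold (EGR3) within DMSO and by 1.02-fold (KLF2) to 1.41-fold (KLF10) within N_12. In GENCODE release 29, 30.8% of the exon bases of IER2 and 26.5% of those of IER3 are shared with an antisense gene on the opposite strand, as are 3.4% of those of EGR3. The strand setting of the counting is not given in the sources used here, so reads of these genes and of their antisense partners cannot be told apart.

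**Figure D3:**
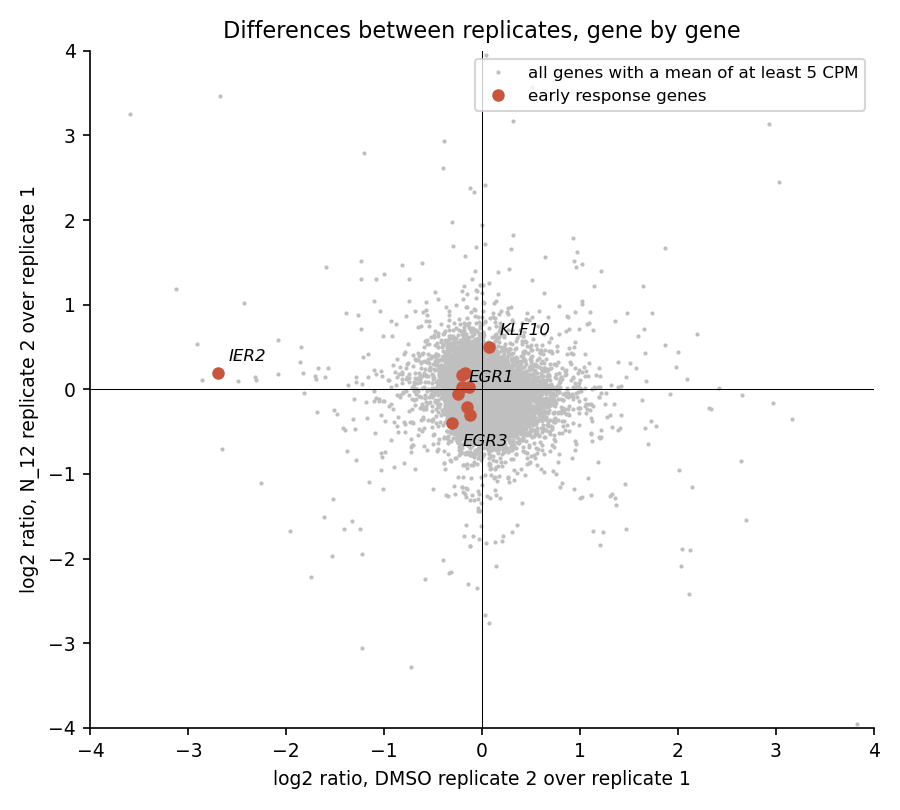
Log2 ratio of replicate 2 over replicate 1, with 0.5 CPM added, in DMSO (x axis) and in N_12 (y axis) for the 11235 genes whose mean reached 5 CPM (grey) and the 10 members (red), with 10 genes beyond the plotted range of 4. IER2 lies far to the left of the other members, at a log2 ratio of -2.70 in DMSO and 0.19 in N_12.

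KLF10 (ENSG00000155090) read 166 and 174 CPM in DMSO and 74.4 and 105 CPM in N_12. The groups did not overlap, and the log2 fold change of -0.92 (SE 0.18, 95% interval -1.34 to -0.50) lay just inside the threshold (adjusted p = 0.0485 by edgeR). The call was kept in 5 of 15 other settings, among them DESeq2 (adjusted p = 0.000555), and was lost in the other 10, among them limma-voom (adjusted p = 0.0778), scaling by totals or upper quartiles, a GC and length correction, and leaving out any 1 of the 4 libraries. Its log2 fold change was -0.71 without N_12 replicate 1 and -1.20 without N_12 replicate 2, the lowest and highest of the 15 in size.

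KLF6 (ENSG00000067082), a zinc finger factor described as a growth suppressor, read 328 and 300.5 CPM in DMSO and 269 and 218 CPM in N_12. Its groups did not overlap, with a log2 fold change of -0.37 (95% interval -0.71 to -0.03, adjusted p = 0.202 by edgeR). KLF2 (ENSG00000127528), a factor of quiescence in lymphocytes and endothelium, read 58.2 and 52.9 CPM in DMSO and 53.2 and 54.1 CPM in N_12. The 2 groups of KLF2 overlapped, and its log2 fold change was -0.05 (95% interval -0.39 to 0.29, adjusted p = 0.875 by edgeR). Over the set, the 2 groups were fully separated with N_12 on the lower side for 6 of 10 members, against 26.8% of all tested genes, and on the higher side for 1 of 10, against 27.9%.

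**Figure D4:**
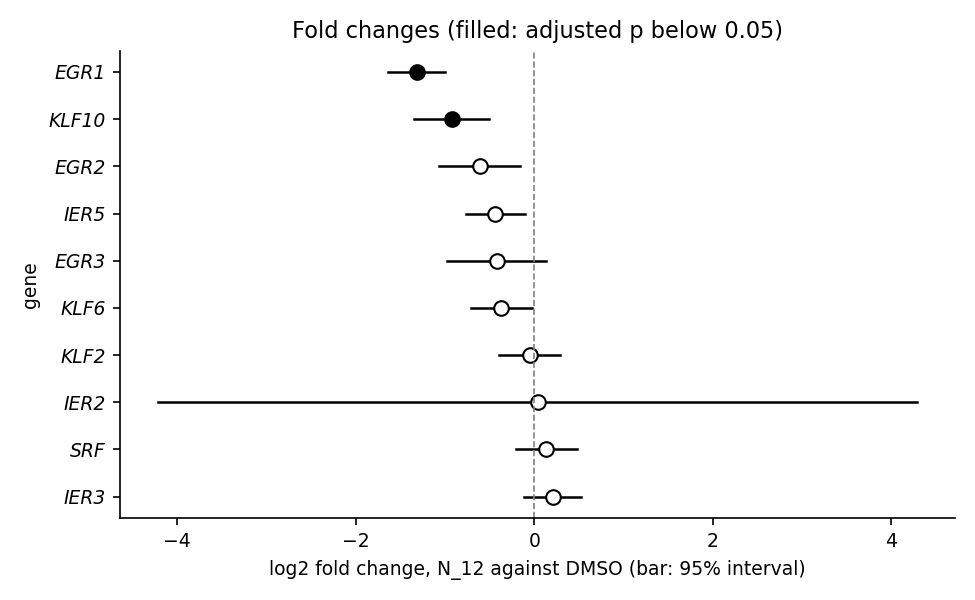
Log2 fold change of N_12 against DMSO with its 95% interval for each of the 10 genes; filled points passed the adjusted threshold of 0.05. EGR1 at -1.32 and KLF10 at -0.92 are filled, and the interval of IER2 runs from -4.21 to 4.29.

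Ratios of counts within a library need no scaling between libraries. The EGR1 count was 7.66 and 7.45 times the SRF count in DMSO and 2.99 and 2.55 times in N_12. Against EGR2, the EGR1 count was 77.3 and 76.1 times as high in DMSO and 48.5 and 45.5 times in N_12. The KLF10 count was 2.85 and 3.29 times that of KLF2 in DMSO and 1.40 and 1.94 times in N_12. In each of these ratios the groups do not overlap, and an exact two-sided permutation test of 2 libraries against 2 cannot go below p = 0.333, the value each one gave. The KLF10 to KLF6 ratio, 0.506 and 0.580 in DMSO and 0.277 and 0.482 in N_12, spread more widely within N_12.

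Levels of different genes were compared per length, as CPM per kilobase of exon. In DMSO the order ran from IER3 (583 ± 45.0 CPM per kilobase) through EGR1 (197 ± 23.5), KLF6 (51.2 ± 3.20), KLF10 (42.5 ± 1.47), IER5 (38.3 ± 3.29), KLF2 (27.5 ± 1.85), IER2 (25.5 ± 26.6) and SRF (19.5 ± 1.95) to EGR2 (2.19 ± 0.238) and EGR3 (1.27 ± 0.205), each n = 2. Among neighbours in that order, the libraries overlapped for KLF2 and IER2 and for IER2 and SRF, and not for the others. In N_12 the order was the same except that KLF10 (22.4 ± 5.42 CPM per kilobase) moved from the fourth place to the seventh, between IER2 and SRF. There the libraries of neighbouring genes overlapped from IER5 down to SRF. IER3 was 2.96 times as high as EGR1 per kilobase in DMSO and 8.51 times in N_12.

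A further list held 35 other early response genes. It was chosen with earlier results of these data known, as were all the lists below. Of these 35 genes 6 were called lower and 0 higher by edgeR, against 1.43% and 0.822% of all tested genes. The median log2 fold change was -0.42. At an unadjusted edgeR p under 0.05, 15 lay on the lower side and 4 on the higher side, against 10.8% and 11%. DESeq2 called 13 lower and 0 higher, against 4.78% and 3.91%, and limma-voom 2 and 0, against 0.596% and 0.333%. The same shares over all tested genes apply to the lists below. Among the AP-1 genes, whose proteins pair into the AP-1 transcription factor, FOS, JUN and JUNB fell. Their log2 fold changes were -1.68 (SE 0.16), -0.78 (SE 0.14) and -0.73 (SE 0.14). GADD45B, a stress-induced regulator of MAP kinase signalling (-1.11, SE 0.16), MYC, a driver of cell growth (-1.14, SE 0.22), and ZFP36, a protein that binds AU-rich messages and promotes their decay (-0.89, SE 0.17), fell as well. Adjusted p-values of these 6 genes lay between 0.00428 and 0.0465 by edgeR. Without DMSO replicate 1 the calls of JUN, JUNB, MYC and ZFP36 ended, and leaving out either N_12 library ended the calls of all 6 genes. With non-robust dispersions GADD45B and FOS alone stayed called. Other AP-1 genes of the list went both ways and were not called in the main analysis. FOSL1 (log2 fold change 0.57) and JUND (0.36) lay higher, and FOSB (-0.47) and FOSL2 (-1.20) lay lower.

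The relatives of the members showed no calls. None of the 12 tested KLF genes outside the set was called by edgeR, limma-voom or DESeq2, with a median log2 fold change of -0.09 and 2 genes at an unadjusted p under 0.05, both on the higher side. These were KLF14 (1.85 ± 0.0242 CPM in DMSO, 3.57 ± 0.361 in N_12, log2 fold change 0.94, adjusted p = 0.0901 by edgeR) and KLF15 (3.42 ± 0.124 and 5.67 ± 0.0292 CPM, 0.73, adjusted p = 0.106). KLF11, the nearest relative of KLF10, had a log2 fold change of -0.37 (95% interval -0.74 to 0.01) and KLF7 one of -0.29 (-0.67 to 0.09). KLF1 and KLF17 had too few counts for a test. NAB1 and NAB2, corepressors that bind EGR proteins, had log2 fold changes of -0.24 (-0.59 to 0.11) and 0.15 (-0.22 to 0.51). IER5L, a relative of IER5, had 112 ± 6.69 CPM in DMSO against 145 ± 0.654 in N_12 (0.36, adjusted p = 0.166 by edgeR) and EGR4 at 0.270 ± 0.243 and 0.263 ± 0.199 CPM, from 3 to 17 counts per library. Of these 4 tested relatives and corepressors 0 were called by any of the 3 tools, with 1 at an unadjusted p under 0.05.

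SRF cofactors and the cytoskeletal targets of SRF and MRTF were also without calls by edgeR in the main analysis. Of 5 tested cofactors 0 were called there or by limma-voom, with 1 at an unadjusted p under 0.05. DESeq2 called MRTFB higher, as did edgeR with the replicate number as a block, where 3.11% of all tested genes were called higher. MRTFB, an actin-regulated coactivator, read 46.9 and 25.5 CPM in DMSO and 65.5 and 62.6 CPM in N_12. Its log2 fold change was 0.82 (95% interval 0.11 to 1.53, adjusted p = 0.182 by edgeR), and without DMSO replicate 1 it was called higher (1.33, adjusted p = 0.0117). The ETS-family cofactors ELK1, ELK3 and ELK4 had log2 fold changes of 0.19, -0.11 and -0.25, all with intervals on both sides of 0. Of 19 tested cytoskeletal targets edgeR and limma-voom called 0, with 1 lower and 2 higher at an unadjusted p under 0.05 and a median of 0.03. TAGLN2, an actin-bundling protein gene, had a log2 fold change of -0.45 (95% interval -0.75 to -0.15), CALD1, which encodes caldesmon, one of 0.77 (0.22 to 1.33), the tropomyosin gene TPM4 one of 0.46 (0.10 to 0.82) and ZYX, a focal adhesion gene, one of 0.29 (-0.02 to 0.60). DESeq2 called TAGLN2 lower and CALD1 higher, and edgeR with the replicate block called CALD1 alone, as higher.

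Transcripts of the kinase route described above showed no call. Of its 12 tested feedback inhibitors 1 was called lower and 2 higher by edgeR, against 1.43% and 0.822% of all tested genes. At an unadjusted edgeR p under 0.05, 4 of the 12 lay on the lower side and 2 on the higher side, against 10.8% and 11%. DESeq2 called 2 lower and 2 higher, against 4.78% and 3.91%, and the median log2 fold change was -0.003. The kinase list held 17 tested genes, those of RAS, RAF, MEK, ERK and RSK with SOS1, SHOC2, KSR1 and MAPK14. MAPK14 is a MAP kinase outside the ERK branch. Of these 17 genes 0 were called by edgeR, limma-voom or DESeq2, and the median log2 fold change was 0.08. The MEK gene MAP2K1, with 117 and 108 CPM in DMSO against 87.1 and 83.3 in N_12, was the 1 gene at an unadjusted p under 0.05 (-0.40, 95% interval -0.71 to -0.09). MAP2K2 (0.27) and BRAF (0.31) had intervals on both sides of 0. Protein activity of these kinases was not measured. Among the feedback inhibitors DUSP1, a MAP kinase phosphatase and itself an early response gene, fell (32.6 ± 3.55 CPM in DMSO, 14.1 ± 1.33 in N_12, log2 fold change -1.21 with SE 0.17, adjusted p = 0.0182 by edgeR). The ERK phosphatase gene DUSP4 rose from 574 ± 5.14 to 932 ± 14.7 CPM (0.70, SE 0.12, adjusted p = 0.0328) and SPRY1, an inhibitor of receptor tyrosine kinase signalling, from 3.30 ± 0.104 to 7.37 ± 0.0167 CPM (1.16, SE 0.20, adjusted p = 0.0329). Leaving out either DMSO library ended the calls of DUSP4 and SPRY1, and leaving out either N_12 library ended those of DUSP1, DUSP4 and SPRY1. With limma-voom DUSP1 alone was called (adjusted p of 0.0527 for DUSP4 and 0.063 for SPRY1), and non-robust dispersions also left DUSP1 alone. DUSP5, an ERK phosphatase of the nucleus, had a log2 fold change of -0.64 (adjusted p = 0.0647 by edgeR). It was called lower by DESeq2, and by edgeR with the replicate number as a block and with a GC and length correction.

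**Figure D5:**
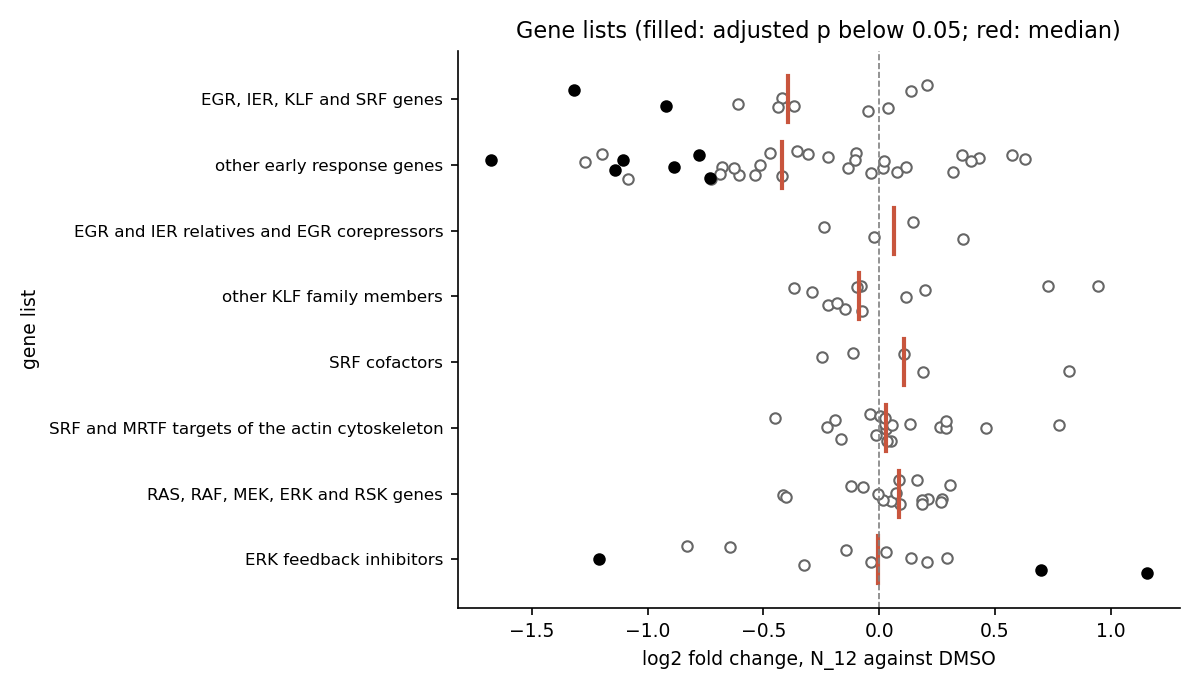
Log2 fold change of N_12 against DMSO for each tested gene of the set and of 7 other lists, 1 point per gene with random vertical spread, filled where the adjusted p was below 0.05 and with the list's median in red. The medians of the set (-0.39) and of the other early response genes (-0.42) lie left of those of the other lists, which run from -0.09 to 0.11.

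Genes with a CArG box in any RefSeq promoter window were then counted over the whole table. Of 176 such tested genes 4 were called lower and 2 higher (3.41%), with a median log2 fold change of -0.06. The members were not left out: EGR1 is among the 4 called lower, and EGR2 and SRF are among the 176. Over all 11152 tested genes with a window, 2.16% were called and the median was 0.01. For genes with the EGR site, 2140 in number, the called share was 1.82% and the median 0.03. The 3681 genes with the ETS core had a called share of 2.01% and a median of 0.03. For the 4405 genes with the CRE core these were 2.04% and 0.01.

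The genes most like EGR1 over the 4 libraries were found by the Euclidean distance between log2 CPM values centred on each gene's mean, among 11207 candidates whose mean reached 5 CPM. The nearest 5 were DGCR2 (distance 0.10), NUDT4 (0.12), C4orf3 (0.13), TMEM45A (0.14) and SEC61G (0.17). DGCR2, for example, read 118 and 107 CPM in DMSO and 44.0 and 45.2 CPM in N_12. NUDT4 has a near-identical copy in the genome, so its count is uncertain. Of the members KLF10 was nearest to EGR1, at a distance of 0.58, with 188 candidates nearer. With 4 libraries such a ranking is a description only.

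Total counts were 31120459 and 29769568 in DMSO and 41717938 and 39865327 in N_12, and mitochondrially encoded genes took 6.59% to 9.61% of them. Both N_12 libraries were deeper than both DMSO libraries, and the part of depth in the results was not tested beyond the scalings tried. Of 7 colon epithelial markers 6 were above 1 CPM in every library and VIL1 had at most 4 counts. Their summed level was 4075 to 4607 CPM in DMSO and 3351 to 3694 CPM in N_12, so this sum, carried mostly by KRT8 and KRT19, was lower in both N_12 libraries, as EGR1 and KLF10 were, and its part in their fall was not tested. EPCAM (276 and 253 CPM in DMSO, 216 and 181 in N_12) and CDH1 (85.9 and 75.2, then 48.7 and 63.9) were also lower in both N_12 libraries, as were KRT8 and KRT19. The markers did not all move together, since CDX2 was higher in N_12 (22.1 and 20.7 CPM against 13.6 and 14.3 in DMSO) and KRT18 overlapped between the groups. Of 6 fibroblast markers COL1A2, DCN and LUM were at 0 in every library and COL1A1 carried nearly the whole sum (61.2 to 64.9 CPM in DMSO, 55.5 to 60.2 CPM in N_12). Of 6 leukocyte markers PTPRC and CD3E were at 0 and CD68 carried the sum (35.03 to 41.7 and 42.3 to 49.1 CPM), and the 4 endothelial markers summed to at most 2.35 CPM. Because these are bulk libraries, fewer expressing cells and less RNA per cell cannot be told apart for any gene above.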

How the data were processed

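Each messenger RNA library started from 1.4 ug of total RNA, per the labels' protocols. The authors deposited whole-number counts per human Ensembl gene, not normalized, 1 column per library. An aligner, a counting tool and a strand setting were not given in the sources used here. GRCm38 and mm10, named in the submitters' processing notes, are mouse builds, so no coordinates are given for the counted genes. The promoter windows carry RefSeq's own GRCh38.p14 coordinates.

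Groups and replicate numbers came from the sample titles, and symbols were found for 20148 identifiers. The tests used edgeR 4.0.16 under R 4.3.3: TMM scaling (factors 0.98 to 1.02), edgeR's expression filter, a robust quasi-likelihood fit without a replicate term on all 4 libraries, two-sided, and a Benjamini-Hochberg adjusted p threshold of 0.05 over 14105 genes. Standard errors and 95% intervals were derived from each F statistic and fold change. Exon lengths and overlaps came from GENCODE release 29, and promoter matches were taken on both strands. The replicates differed by more than sampling noise (chi-square over its degrees of freedom was 36.5 in DMSO, 57.2 in N_12) and were counted separately.

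The members and lists were chosen with earlier results of these data known. Named genes are the 10 members, every called gene of each other list, filled up to 4 by the smallest p, and the 5 genes nearest to EGR1. FOSB, FOSL1, FOSL2 and JUND were named besides, after their values were seen. Alternatives were other scalings and filters, a replicate block, limma-voom 3.58.1, DESeq2 1.42.0, non-robust dispersions, a GC and length correction, and leaving out each library. A named gene of the kinase list is not reported here. The procedure was tested on simulated data, where changed genes were called in the right direction but the share of unchanged genes among the calls exceeded the threshold, so calls near 0.05 are weak.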

Additional observations from a re-analysis of the deposited data

How the results depend on the processing

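The counts of calls depended on the settings, while the directions of the called members, EGR1 and KLF10, held in all 15 alternatives. Of all tested genes 317 were called in the main analysis, 963 with the replicate block, 1225 by DESeq2, 918 with the GC and length correction, 131 by limma-voom, 131 with non-robust dispersions, and 0 to 451 when 1 library was left out. Higher calls were 36.6% of all calls, and 46.2% when libraries were scaled by totals alone. In place of 2 lower members, 1 was called with upper quartile scaling, with totals alone, by limma-voom, with non-robust dispersions and with the GC and length correction, and 0 to 1 when 1 library was left out. Higher members numbered 0, and 0 to 1 when 1 library was left out. Of the 104 tested genes of the other lists 7 were lower and 2 higher, against 1.43% and 0.822% of all tested genes. The replicate block gave 14 and 5, DESeq2 16 and 4, limma-voom 3 and 0, non-robust dispersions 3 and 0, and leaving out 1 library 0 to 11 and 0 to 1.

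Signs that changed belonged to genes that were not called in the main analysis. Leaving out 1 library moved the log2 fold change of IER2 from -0.76 (without DMSO replicate 2) to 1.97 (without DMSO replicate 1, where it was called), with -0.054 without N_12 replicate 2. The same ranges were -0.12 to 0.021 for KLF2 (the latter without DMSO replicate 1), -0.010 to 0.27 for NAB2 and -0.31 to 0.040 for ELK3 (turned without N_12 replicate 2), and -1.13 to 1.40 for EGR4, with 0.57 without N_12 replicate 2. EGR4 was also at 0.019 with totals alone, 0.062 by limma-voom and 0.0084 with the crossed block. Apart from the fewer libraries in the leave-out settings, the cause was not tested.

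The replicate numbers did not pair the libraries by any label, and the deviations of same-numbered libraries from their group means had a weak negative correlation (-0.15 over 11235 genes). With the replicate block 2 members were still called lower, against 3.72% of all tested genes. A block with crossed numbers, chosen after seeing the data, called 28 genes in all, 0 members and 0 genes of the other lists in either direction. With 2 libraries per group, 95% intervals of single genes are wide, and a gene that was not called was not shown to be unchanged.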

Other observations

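ID2, an inhibitor of helix-loop-helix factors on the list of other early response genes, spread between replicates in both groups. It read 63.3 and 20.6 CPM in DMSO replicates 1 and 2 and 19.1 and 53.0 CPM in N_12 replicates 1 and 2. It was chosen after its values were seen, and its log2 fold change of -0.22 was not called (adjusted p = 0.923 by edgeR).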
